A study of Mus musculus with 20 samples.

Results

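Imiquimod (IMQ) is an agonist of Toll-like receptors 7 and 8, the endosomal sensors of single-stranded RNA, and repeated application to the skin of mice is used as a model of lupus. The comparison described here is that of bone marrow neutrophils from IMQ-treated and untreated wild-type (WT) mice, 5 libraries against 5, out of 20 libraries in the series. All 10 mice were female C57BL/6J. The treated mice received a 5% cream on the dorsal side of both ears 3 times per week for 6 weeks from 8 to 10 weeks of age, around ZT 11, where ZT counts hours after lights on, and the untreated mice received none. The age of the untreated mice is not given in the sources used here. Neutrophils were taken from femurs and tibias between ZT 1 and ZT 4 and isolated by magnetic negative selection, in which other cells are labelled and retained. One poly(A) RNA library was made per mouse. The other 10 libraries, from untreated and IMQ-treated *Bmal1* Mye-/- mice (floxed *Bmal1* with LysM-Cre, which acts in myeloid cells and not in neutrophils alone), entered the model only to estimate the spread between mice and for a test of the difference between genotypes.

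Neutrophils are short-lived phagocytes that arise in the marrow from dividing progenitors, fill their granules in a fixed order as they mature, and leave for the blood. In inflammation the marrow switches to emergency granulopoiesis, in which cytokines such as G-CSF raise the division of precursors and the release of younger cells. In these cells Toll-like receptors and cytokine receptors act through NF-kB, interferon regulatory factors and JAK kinases, and glycolysis is the main source of energy. In lupus, neutrophils are also studied as a source of interferon and of the B cell factors BAFF and APRIL.

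IMQ-treated WT neutrophils had higher levels of stefin A protease inhibitors, of a few acute-phase genes, of glycolysis genes such as *Pfkl* and *Pfkp*, and of the signalling genes *Jak3*, *Csf2rb2* and *Tlr1*. Levels of the cholesterol synthesis gene *Hsd17b7* and of the chemokines *Ccl3* and *Ccl4* were lower, and so were most plasma cell markers, which are transcripts of another cell type of the marrow. None of these lower genes passed in every fit that left out 1 library, although 8 other lower genes did, among them *Ppfibp2* and *Dtx4*. Of the higher calls, 5 of 7 stefin A, 1 of 4 acute-phase and 2 of 6 glycolysis genes passed in every such fit. On the lists of 30 interferon-stimulated genes, 10 primary granule genes and 14 secondary granule genes none passed by edgeR, while DESeq2 called 1 on each of the first 2 lists, and the B cell factors *Tnfsf13* and *Tnfsf13b* did not pass. Of 14030 genes tested, 554 passed at an adjusted p under 0.05 (3.95%). Every adjusted p below comes from the quasi-likelihood test of edgeR, with the false discovery rate controlled over all genes tested by the method of Benjamini and Hochberg, and ± marks the standard error of a log2 fold change, IMQ minus untreated. Of these, 329 were higher with IMQ (2.34%) and 225 lower (1.6%), and 154 and 162 of them changed at least 2-fold. At an unadjusted p under 0.05 there were 3129 genes. Levels are counts per 1000000 reads on genes (CPM), scaled between libraries, and are not divided by gene length, so that they compare libraries and not genes.

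IMQ replicate 5 stood apart from the other treated libraries, and the results are therefore given with and without it. On the first principal component of the 10 WT libraries (43.9% of the variance) the untreated libraries lay between −41.8 and −21.2 and IMQ replicates 1 to 4 at 48.4, 44, 97.5 and 17.1, while IMQ replicate 5 lay at −35.5, among the untreated. Without it 1989 of 14273 genes passed (13.9%), 1078 higher (7.55%) and 911 lower (6.38%), and these included all 554 in the same direction. The library was singled out by its measured values, so the larger count is a description and not an independent result. Among the 1989 genes, IMQ replicate 5 lay within the range of the untreated libraries for 48.8% of the higher and 56.6% of the lower ones, and within the range of IMQ replicates 1 to 4 for 11.4% and 10.3%. Among the 554 genes it lay within the untreated range for 37.4% of the higher and 23.1% of the lower ones, within the range of the other 4 treated libraries for 13.1% and 20.9%, and outside both ranges for the rest. The labels give no reason for its place, and none was tested. Whether this mouse was treated as its label says could not be checked from the files, and the 554 genes and the fold changes from all 10 libraries rest on that label. Reads on genes numbered 67652755 to 79689416 in the untreated and 49455135 to 66124322 in the treated libraries, and the 11 neutrophil markers measured, all present, summed to 140000 to 155000 CPM and 109000 to 169000 CPM.

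**Figure D1:**
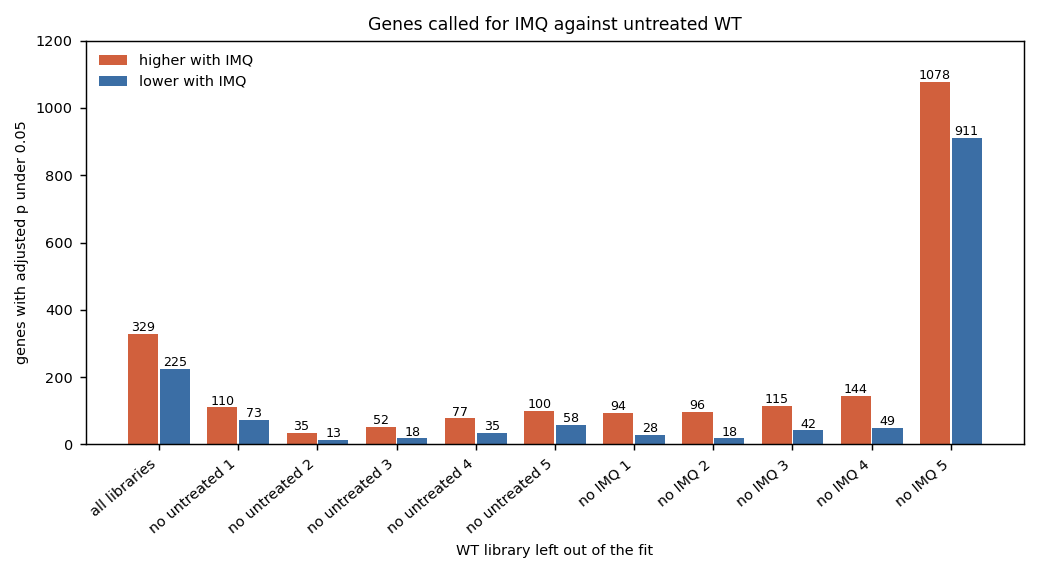
Number of genes with an adjusted p under 0.05 for IMQ against untreated WT (vertical axis), higher (orange) and lower (blue) with IMQ, in the fit of all libraries and in fits that each left out 1 WT library (horizontal axis). Leaving out IMQ replicate 5 raised the counts to 1078 and 911, and leaving out any of the other 9 lowered them to between 35 and 144 higher and between 13 and 73 lower.

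The count depended on each library. It fell to between 48 (without untreated replicate 2) and 193 (without IMQ replicate 4) when any WT library other than IMQ replicate 5 was left out. It was 183, 70, 112 and 158 without untreated replicates 1, 3, 4 and 5, and 122, 114 and 157 without IMQ replicates 1, 2 and 3. Of the 554 genes, 255 passed in only 1 of these 10 fits, that without IMQ replicate 5, and 43 passed in all 10, 35 higher and 8 lower. All 554 kept their direction in each. The 43 include *Jak3*, *Csf2rb2*, *Tlr1*, *Lrg1*, *Pfkl*, *Pfkp*, *Cdc25b*, *Cd38*, *Nos2* and 5 stefin A genes, which are described below. Among the 8 lower genes were *Ppfibp2*, *Dtx4*, *Eaf2* and *Maob*.

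*Jak3*, a tyrosine kinase that serves the common gamma chain of cytokine receptors, had the smallest p-value. Its level was 29.99, 28.1, 30.4, 27.2 and 31.5 CPM in untreated replicates 1 to 5 and 60.7, 64.3, 61.9, 61.7 and 51.7 CPM in IMQ replicates 1 to 5. All treated libraries were above all untreated ones, and IMQ replicate 5 was the lowest of them. The log2 fold change was 1.03 ± 0.11 (adjusted p = 0.000154), and 1.07 ± 0.11 without IMQ replicate 5. The gene lies on chromosome 8 (GRCm38.p6, 71676383 to 71690577) and overlaps *Insl3*. Many of the genes below also overlap another gene in RefSeq, among them *Cd38*, *Saa3*, *Ppfibp2*, *Pfkp*, *Slc2a1*, *Ldha*, *Nlrc4*, *Pim3*, *Dbp*, *Per3*, *Tnfsf13*, *Bcl2l1* and *Mpo*, while *Ccl3* and *Ccl4* overlap each other. These are overlaps of whole gene spans, introns included. Reads listed as ambiguous, which were left out, made up 0.338% to 0.376% of the untreated and 0.362% to 0.431% of the treated libraries. How overlap affected single genes was not tested. *Csf2rb2*, a receptor subunit of interleukin-3, was at 51.5, 46.3, 41.4, 59.5 and 51.8 CPM in the untreated and 87.8, 83.5, 99.2, 128 and 88.9 CPM in the treated libraries, again without overlap and with IMQ replicate 5 inside the treated range (log2 fold change 0.96 ± 0.15, adjusted p = 0.0069). Of 22 genes for growth factor and cytokine receptors it alone passed, where 2.34% of all genes tested were higher and 1.6% lower. Among 21 JAK-STAT feedback genes *Jak3* rose and *Pim3*, a serine kinase induced by STAT signalling, fell, with 11.99, 12.6, 9.21, 11.2 and 16.5 CPM in the untreated and 6.88, 6.27, 5.04, 5.12 and 5.33 CPM in the treated libraries (log2 fold change −1.101 ± 0.25, adjusted p = 0.0256), and this call was made in 4 of the 10 fits without 1 library. IMQ replicate 5 lay with the other treated libraries for *Pim3*.

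**Figure D2:**
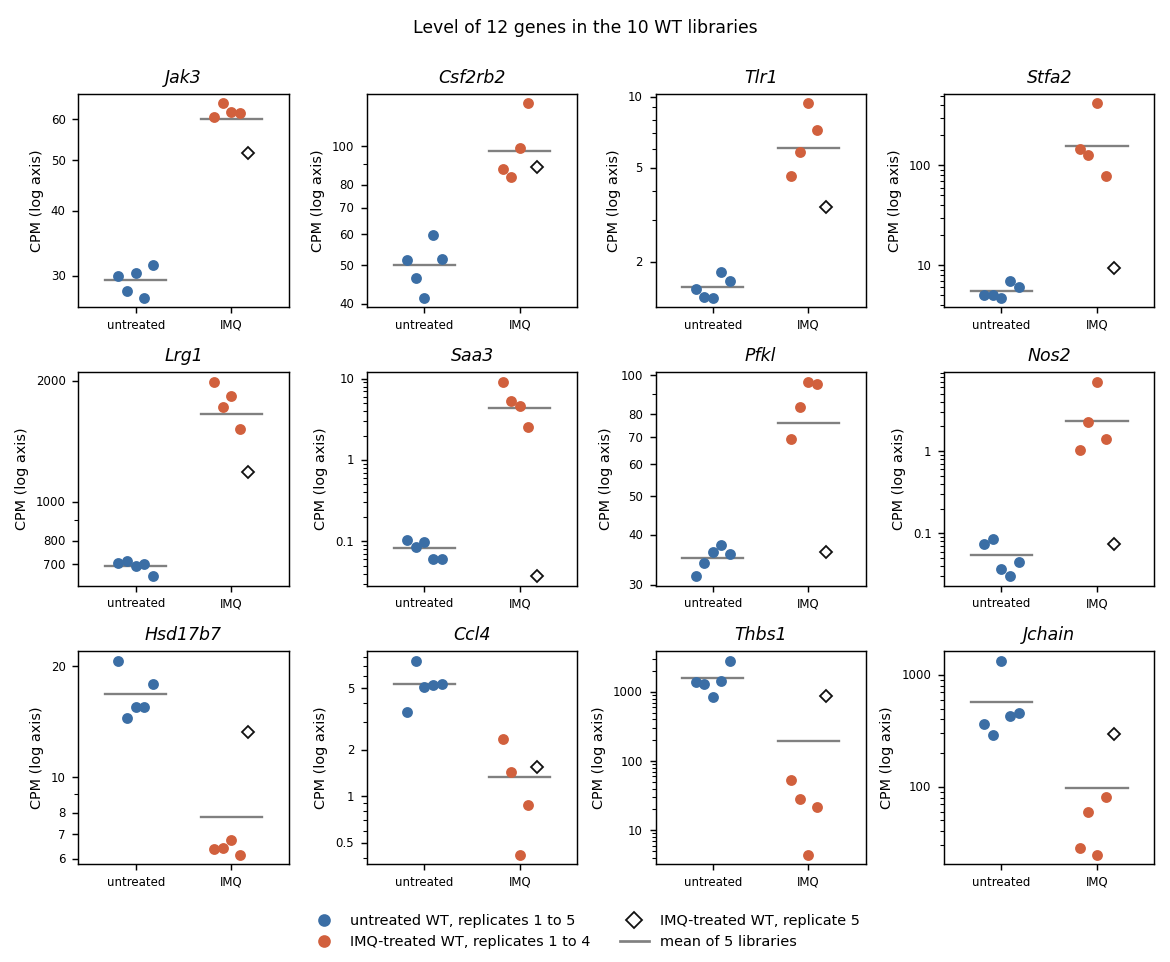
Level in CPM (vertical axes, log scale) of 12 genes in the untreated (blue) and IMQ-treated WT libraries (orange, replicates 1 to 4, and open diamond, replicate 5), each point 1 mouse and each grey line the mean of 5. Replicate 5 was near the other treated libraries for Csf2rb2 and Ccl4, between the groups for Jak3, Lrg1 and Hsd17b7, and among the untreated for Pfkl, Nos2, Thbs1 and Jchain.

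Of 29 genes of Toll-like receptor signalling 1 was higher and 1 lower, beside 2.34% higher and 1.6% lower of all genes tested. *Tlr1*, a partner of TLR2 in the sensing of bacterial lipopeptides, was at 1.53, 1.42, 1.41, 1.805 and 1.65 CPM in the untreated and 4.62, 5.84, 9.36, 7.22 and 3.401 CPM in the treated libraries (log2 fold change 1.96 ± 0.27, adjusted p = 0.00233), and the lowest treated library, IMQ replicate 5, was still above every untreated one. *Cnpy3*, a chaperone of Toll-like receptors, was the gene that fell, and passed in 2 of the 10 fits without 1 library. *Tlr7*, a receptor of IMQ itself, was at 29.9, 25.1, 17.9, 33.3 and 32.1 CPM in the untreated and 46.5, 31.3, 40.3, 38.1 and 25.7 CPM in the treated libraries, which overlapped (log2 fold change 0.396 ± 0.24, adjusted p = 0.344). *Cd14*, the co-receptor for lipopolysaccharide, was at 47.9, 40.9, 31.4, 47.7 and 66.02 CPM in the untreated libraries and 263, 226, 75.6, 113 and 30.8 CPM in the treated ones, where IMQ replicate 5 was the lowest of all 10 (log2 fold change 1.598 ± 0.46, adjusted p = 0.0553). Without that library its log2 fold change was 1.84 ± 0.40 (adjusted p = 0.00674). Of 19 interleukin-1 and inflammasome genes, the adaptor *Pycard* (log2 fold change 0.82 ± 0.17, adjusted p = 0.0174) and the sensor *Nlrc4* (1.701 ± 0.38, adjusted p = 0.0226) rose, both with IMQ replicate 5 inside the untreated range, and passed in 9 and 4 of the 10 fits without 1 library. Of 18 NF-kB subunits and feedback genes 0 passed with all libraries by edgeR or limma and 1 by DESeq2 (6 had an unadjusted p under 0.05). Without IMQ replicate 5, 2 of them rose, beside 7.55% of all genes tested.

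The stefin A genes were the list in which the largest share of members rose, 7 of 8 tested, with a median log2 fold change of 2.81 beside 0.03 over all genes. For the same 7 all treated libraries were above all untreated ones, as for 3.11% of all genes tested. They encode small cytosolic inhibitors of cysteine proteases such as cathepsins and lie in a cluster on chromosome 16, in mice a family of many near copies. *Stfa2* (chr16, 36403946 to 36408363) was at 4.98, 5.07, 4.73, 6.92 and 6.09 CPM in the untreated libraries and at 146, 127, 418 and 78.5 CPM in IMQ replicates 1 to 4, but at 9.31 CPM in IMQ replicate 5. Every treated library was above every untreated one, although IMQ replicate 5 exceeded the highest by little. The log2 fold change was 4.81 ± 0.69 (adjusted p = 0.0027). BC100530 was at 6.74, 5.58, 5.04, 7.48 and 6.67 CPM in the untreated and 59.2, 56.4, 266, 35.1 and 10.5 CPM in the treated libraries (log2 fold change 3.76 ± 0.63, adjusted p = 0.00702). *Stfa1* was at 18.9, 14.6, 14.3, 20.6 and 17.5 CPM without and 134, 109, 302, 64.7 and 24.3 CPM with IMQ (2.88 ± 0.49, adjusted p = 0.00702). *Stfa3* was at 10.9, 12.6, 10.9, 14.3 and 12.8 CPM without and 58.2, 56.1, 230.4, 47.5 and 18.6 CPM with IMQ (2.74 ± 0.52, adjusted p = 0.0129). IMQ replicate 3 had the highest and IMQ replicate 5 the lowest treated value of each of these 4 genes. BC117090, *Gm5483* and *Stfa2l1* also rose, by log2 fold changes of 3.65, 1.46 and 1.495, while *Gm5416* was at 0.44 (adjusted p = 0.5). The 2 smaller changes, of *Gm5483* and *Stfa2l1*, passed in only 1 of the 10 fits without 1 library, that without IMQ replicate 5. Summed over the 8 genes, the level was 199 to 270 CPM without IMQ, 763 to 1790 CPM in IMQ replicates 1 to 4 and 348 CPM in IMQ replicate 5. Leaving out IMQ replicate 3 lowered the median log2 fold change to 2.07.

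The promoters of 4 of the 8 stefin A genes, those found by their symbol among the RefSeq promoters (GRCm38.p6), are shown because these neighbouring genes rose together. Each run goes from 250 bases before the gene's start to 50 after it, on the gene's strand, and the capitals mark the longest stretch of bases that all 4 share, 17 bases across the start of transcription. *Stfa2* and *Stfa2l1* are identical at 90.5% of aligned positions, and the other 5 pairs at 79.2% to 81%.
Stfa1 (chr16:36276898-36277197, + strand): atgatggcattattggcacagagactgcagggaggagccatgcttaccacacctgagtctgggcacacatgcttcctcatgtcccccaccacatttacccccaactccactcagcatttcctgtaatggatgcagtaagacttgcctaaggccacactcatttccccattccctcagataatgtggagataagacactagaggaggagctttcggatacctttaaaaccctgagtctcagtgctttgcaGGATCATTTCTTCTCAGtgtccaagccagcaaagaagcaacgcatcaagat
Stfa2 (chr16:36408314-36408613, - strand): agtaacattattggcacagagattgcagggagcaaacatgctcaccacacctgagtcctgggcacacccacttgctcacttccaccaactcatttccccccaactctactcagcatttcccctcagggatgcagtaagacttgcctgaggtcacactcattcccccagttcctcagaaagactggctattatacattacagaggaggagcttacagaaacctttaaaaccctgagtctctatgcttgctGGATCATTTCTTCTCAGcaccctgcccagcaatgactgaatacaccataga
Stfa2l1 (chr16:36156561-36156860, + strand): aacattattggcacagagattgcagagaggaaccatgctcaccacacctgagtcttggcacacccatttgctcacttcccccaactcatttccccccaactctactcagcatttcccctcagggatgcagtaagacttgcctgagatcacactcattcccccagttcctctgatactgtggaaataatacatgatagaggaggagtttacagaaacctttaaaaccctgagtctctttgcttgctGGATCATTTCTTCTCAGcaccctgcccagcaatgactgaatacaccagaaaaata
Stfa3 (chr16:36455343-36455642, - strand): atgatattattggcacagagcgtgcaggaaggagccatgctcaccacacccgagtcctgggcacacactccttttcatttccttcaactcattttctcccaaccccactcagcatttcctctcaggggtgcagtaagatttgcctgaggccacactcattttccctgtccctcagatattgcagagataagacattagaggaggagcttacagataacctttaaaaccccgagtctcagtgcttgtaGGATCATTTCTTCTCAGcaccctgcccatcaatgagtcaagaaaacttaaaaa

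Near copies can share reads, and a read that fits more than 1 place is usually not counted. In the GENCODE vM21 transcripts, 22.5% of the 50-base windows of *Stfa1*, 23.8% of BC100530, 33.7% of BC117090, 14.7% of *Stfa2* and 16.8% of *Stfa2l1* also occur in another of the 8 genes, but 0% of *Stfa3*, *Gm5416* and *Gm5483*. The rise of *Stfa3* and *Gm5483* therefore did not involve exact windows shared with the other listed genes. Family members outside these 8 were not compared. The levels of the 5 genes with shared windows are uncertain by at least the share that could not be assigned. Reads that were not uniquely aligned made up 4.43% to 4.83% of the untreated and 4.39% to 6.34% of the treated libraries.

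Of 21 acute-phase and emergency granulopoiesis genes 4 rose, and the median log2 fold change of the list was 0.17. *Lrg1*, a secreted leucine-rich glycoprotein of granulocytes and liver, was at 705, 710.5, 691, 699 and 653 CPM in the untreated and 1988, 1725, 1833, 1520 and 1185 CPM in the treated libraries, without overlap (chromosome 17, 56119678 to 56121946, log2 fold change 1.25 ± 0.21, adjusted p = 0.00702). *Saa3*, an acute-phase serum amyloid A, was near the limit of detection in the untreated libraries, at 0.104, 0.085, 0.0979, 0.0607 and 0.0606 CPM, and at 9.11, 5.3, 4.65 and 2.55 CPM in IMQ replicates 1 to 4. IMQ replicate 5, at 0.0372 CPM, was below all untreated libraries. The fitted log2 fold change was 5.69 ± 1.09 (adjusted p = 0.0141). *Ifitm6*, an interferon-induced transmembrane protein of marrow myeloid cells, was at 1263, 1025, 983, 1078 and 1163 CPM without and 2211, 2449, 2343, 1700 and 1326 CPM with IMQ (log2 fold change 0.86 ± 0.20, adjusted p = 0.0275). *Wfdc17*, a WAP-domain protein of activated phagocytes, was at 10.6, 15.7, 12.8, 23.4 and 17.3 CPM without and 34.4, 33.5, 90.8, 61.2 and 28.8 CPM with IMQ (log2 fold change 1.64 ± 0.36, adjusted p = 0.0218). For *Ifitm6* and *Wfdc17* IMQ replicate 5 was again the lowest treated library, above all untreated ones. *Ifitm6* passed in 3 of the 10 fits without 1 library, *Wfdc17* in 4 and *Saa3* in 9.

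Other genes were named for small p-values or large changes and not as members of a list. *Lipg*, an endothelial-type lipase, was at 6.64, 6.09, 5.38, 5.92 and 5.61 CPM in the untreated and 85.5, 55.2, 113, 37.6 and 7.25 CPM in the treated libraries (log2 fold change 3.33 ± 0.52, adjusted p = 0.00614). *Cyp2s1*, a cytochrome P450 that acts on retinoids and prostanoids, was at 0.37, 0.51, 0.208, 0.577 and 0.273 CPM without and 14.04, 13.8, 15.8, 6.904 and 0.855 CPM with IMQ (4.72 ± 0.76, adjusted p = 0.0069). *Fam20c*, the kinase of secreted proteins, was at 3.14, 3.88, 3.69, 4.17 and 5.03 CPM without and 21.8, 20.6, 31.2, 31.4 and 4.66 CPM with IMQ (2.46 ± 0.35, adjusted p = 0.00233), and here IMQ replicate 5 lay among the untreated. *Tspo*, a cholesterol-binding protein of the outer mitochondrial membrane, was at 207, 225, 224, 204 and 218 CPM without and 567, 450.2, 579.8, 420.2 and 303 CPM with IMQ (1.105 ± 0.15, adjusted p = 0.00233). *Sema6b*, a semaphorin, was at 14.8, 13.99, 10.96, 14.3 and 16.6 CPM without and 40.8, 48.1, 62.6, 50.1 and 25.9 CPM with IMQ (1.69 ± 0.22, adjusted p = 0.00155). *Tspo* and *Sema6b* had all treated libraries above all untreated ones. *Cd38*, the NAD glycohydrolase of activated leukocytes, was at 1.94, 1.05, 1.25, 1.805 and 1.97 CPM without and 8.05, 7.92, 38.3, 6.34 and 1.91 CPM with IMQ (2.96 ± 0.53, adjusted p = 0.00975), with a single high value in IMQ replicate 3 and IMQ replicate 5 among the untreated. *Apol11b*, an apolipoprotein L gene, was at 0.415, 0.354, 0.685, 1.305 and 0.44 CPM without and 15.4, 10.9, 8.61, 45.7 and 1.49 CPM with IMQ (4.68 ± 0.90, adjusted p = 0.0141). *Nos2*, the inducible nitric oxide synthase, was chosen after its values were seen. It was at 0.0741, 0.085, 0.0367, 0.0303 and 0.0455 CPM without IMQ, at 1.04, 2.25, 6.91 and 1.41 CPM in IMQ replicates 1 to 4 and at 0.0743 CPM in IMQ replicate 5 (log2 fold change 5.38 ± 0.91, adjusted p = 0.00702).

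Of 22 glycolysis genes 6 rose and none fell, with a median log2 fold change of 0.30, and without IMQ replicate 5 the count was 9. *Pfkl* and *Pfkp* encode phosphofructokinase, the committed step. *Pfkl* was at 31.6, 33.9, 36.3, 37.8 and 35.9 CPM in the untreated libraries, at 69.4, 83.2, 96.3 and 95.03 CPM in IMQ replicates 1 to 4 and at 36.3 CPM in IMQ replicate 5, which lay in the untreated range (log2 fold change 1.11 ± 0.19, adjusted p = 0.00702). *Pfkp* was at 54.03, 53.9, 58, 62 and 67.5 CPM without and 109, 110.4, 107, 121 and 68.1 CPM with IMQ (0.803 ± 0.14, adjusted p = 0.00702). The glucose transporter *Slc2a1* was at 47.7, 49.5, 56.1, 69.1 and 69.8 CPM without and 96.2, 131, 84.5, 144 and 73.8 CPM with IMQ (0.86 ± 0.21, adjusted p = 0.0298). *Gapdh* (0.48 ± 0.12, adjusted p = 0.0375), *Ldha* (0.56 ± 0.13, adjusted p = 0.0235) and *Pgk1* (0.34, adjusted p = 0.0473) rose by less, and *Tpi1* passed only without IMQ replicate 5 (0.89 ± 0.16, adjusted p = 0.00243). The summed level of the list was 11100 to 12600 CPM in the untreated libraries, 13400 to 16100 CPM in IMQ replicates 1 to 4 and 12800 CPM in IMQ replicate 5, so that the groups did not overlap. *Pfkl* and *Pfkp* passed in all 10 fits with a library left out, but *Gapdh*, *Ldha* and *Pgk1* in only 1 of them, the fit without IMQ replicate 5, and *Slc2a1* in 2. Of 78 oxidative phosphorylation subunits tested 1 passed, *Ndufa3*, which was lower and passed in 1 of the 10 fits, while DESeq2 called 2 higher and 4 lower.

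Of 23 cholesterol synthesis genes tested 3 fell and none rose, 21 had a negative log2 fold change, and the median was −0.55, within −0.62 to −0.46 in the fits that each left out 1 library. By DESeq2 7 fell and by limma 4. *Hsd17b7*, a reductase of the later steps of the pathway, was at 20.7, 14.5, 15.5, 15.5 and 17.9 CPM in the untreated and 6.38, 6.43, 6.74, 6.16 and 13.2 CPM in the treated libraries (log2 fold change −1.11 ± 0.23, adjusted p = 0.0184). The values of IMQ replicates 1 to 4 differed by less than 1 CPM, while IMQ replicate 5 was just below the untreated libraries. It passed in 8 of the 10 fits without 1 library. Without IMQ replicate 5, 6 genes of the list fell, among them the demethylase gene *Cyp51*, the regulator *Srebf2* and the kinase gene *Pmvk*. IMQ replicates 1 to 4 were all below the untreated libraries for 10 of the 23 genes, as for 9.08% of all genes tested, and all 5 treated libraries for 4, beside 3.31%. The list summed to 536 to 608 CPM without IMQ, 348 to 401 CPM in IMQ replicates 1 to 4 and 527 CPM in IMQ replicate 5.

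**Figure D3:**
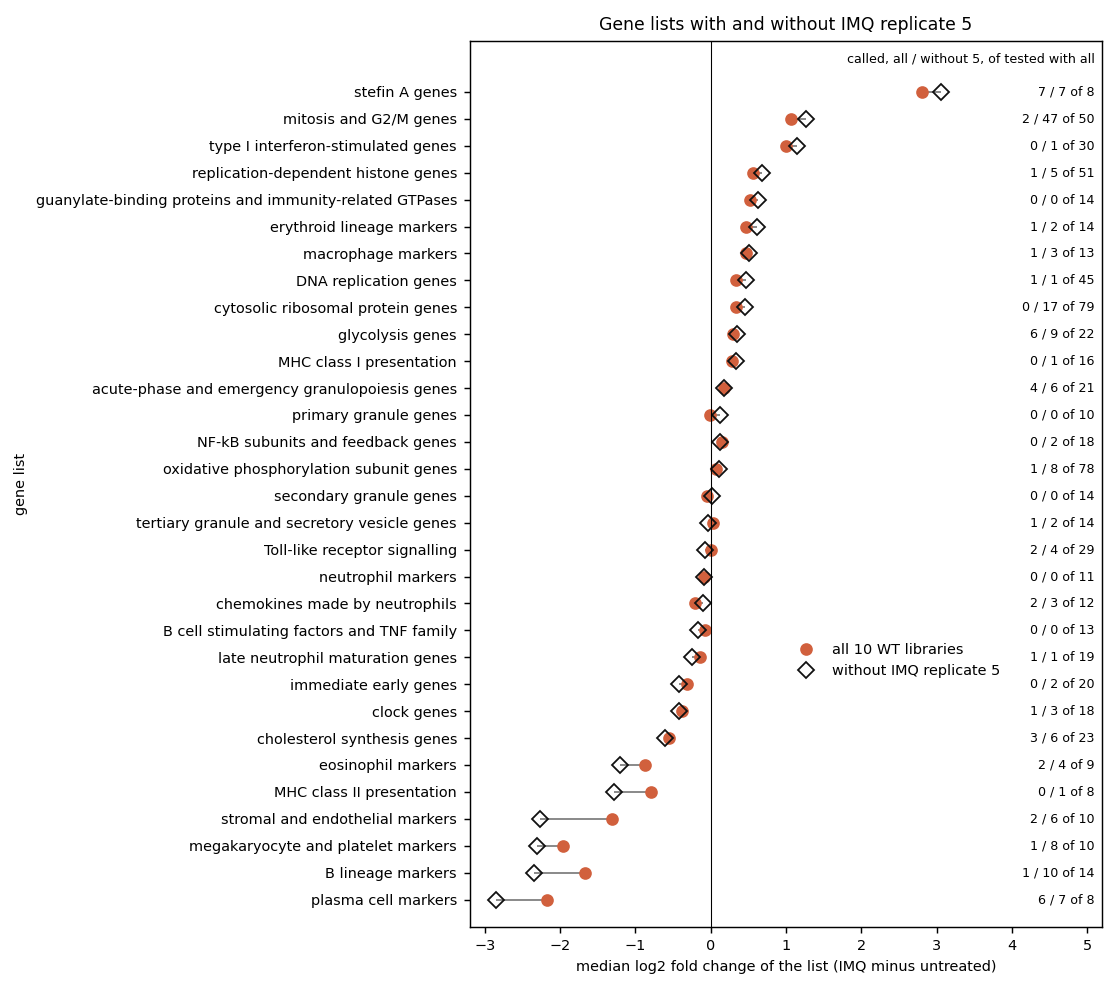
Median log2 fold change of each gene list (horizontal axis) with all 10 WT libraries (filled circles) and without IMQ replicate 5 (open diamonds), with the number of members called in both fits at the right. Stefin A genes had the highest median (2.81 and 3.06) and plasma cell markers the lowest (−2.17 and −2.85), and the number of called mitosis genes went from 2 to 47 of 50 while their median moved from 1.06 to 1.27.

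Few cell division genes passed the test. All 50 mitosis and G2/M genes had a positive log2 fold change, with a median of 1.06, but only *Cdc25b* and *Cenpf* passed, and 47 had an unadjusted p under 0.05. DESeq2 called 27 and limma 1. Without IMQ replicate 5 the median was 1.27 and 47 passed. The summed level of the 50 genes was 2110, 1830, 1900, 1390 and 1380 CPM in untreated replicates 1 to 5, and 3260, 3670, 6950, 1810 and 1370 CPM in IMQ replicates 1 to 5. IMQ replicates 1 to 3 were above all untreated libraries, IMQ replicate 4 lay among them and IMQ replicate 5 was the lowest of the 10. Only 3 of the 50 genes had IMQ replicates 1 to 4 all above the untreated libraries (6%, beside 7.61% of all genes tested). Leaving out IMQ replicate 3, the highest, lowered the median to 0.60. *Cdc25b*, the phosphatase that activates CDK1 at mitotic entry, was at 34.3, 33.7, 34.7, 43.8 and 46.8 CPM without and 68.9, 77.6, 104, 94.7 and 55.2 CPM with IMQ (1.05 ± 0.18, adjusted p = 0.00774), without overlap. *Cenpf*, a kinetochore protein, was at 32.99, 23.8, 25.7, 19.1 and 16.3 CPM without and 59.6, 71.97, 119.9, 29.6 and 21.8 CPM with IMQ (1.36 ± 0.36, adjusted p = 0.0433), and passed in 2 of the 10 fits without 1 library. Of 45 DNA replication genes 1 rose, *Rfc2* (0.34 ± 0.08, adjusted p = 0.0299), which passed in 1 of the 10 fits without 1 library, and the median of 0.34 turned to −0.18 without IMQ replicate 3. *Rrm2*, the ribonucleotide reductase subunit of S phase, was at 63.8, 62.8, 63.6, 41.3 and 34.9 CPM without and 76.2, 100.2, 266, 37.7 and 38 CPM with IMQ (0.96 ± 0.43, adjusted p = 0.188). Cytosolic ribosomal protein genes had 0 of 79 called by edgeR and limma and 2 by DESeq2, 18 with an unadjusted p under 0.05, and 17 called without IMQ replicate 5. Their summed level was 7050 to 8830 CPM in the untreated libraries and 18300 CPM in IMQ replicate 3, with the other treated libraries at 6620 to 10200 CPM.

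Granule genes mark the stage of a maturing neutrophil. Of 10 primary granule genes, made by promyelocytes, 0 passed by edgeR or limma and 1 by DESeq2 (1 had an unadjusted p under 0.05), and the median log2 fold change was −0.01. *Mpo*, myeloperoxidase, was at 269, 333, 607, 87.7 and 185 CPM in the untreated and 99.4, 261, 211, 41.3 and 102.6 CPM in the treated libraries (−1.05 ± 0.59, adjusted p = 0.307), and *Elane*, neutrophil elastase, at 134, 155, 269.9, 42.8 and 96.1 CPM and 49.9, 119, 141, 19.3 and 51.5 CPM (−0.87 ± 0.54, adjusted p = 0.357). The lowest *Mpo* and *Elane* values of the untreated group were in replicate 4 and the highest in replicate 3, so the spread between untreated mice was wide. *Ctsc*, the protease that activates the granule serine proteases, was at 15.5, 14.2, 15.2, 15.6 and 20.3 CPM without and 45.3, 33.7, 40.5, 47.5 and 32.2 CPM with IMQ, without overlap, and still missed the threshold (1.303 ± 0.43, adjusted p = 0.0849). Of 14 secondary granule genes, made by myelocytes, 0 passed by edgeR, DESeq2 or limma (1 had an unadjusted p under 0.05), with a median of −0.04. *Camp*, the cathelicidin, was at −0.12 ± 0.15 and *Chil3*, a chitinase-like protein, at 0.53 ± 0.28, neither passing (adjusted p = 0.686 and adjusted p = 0.278). Of 19 late maturation genes *Ifitm2* passed (0.67 ± 0.15, adjusted p = 0.0259), and in 1 of the 10 fits without 1 library. IMQ replicate 3 had the lowest value of the late maturation list, with a median log2 deviation of −1.02 from the mean of the untreated libraries, and the lowest summed neutrophil markers, 109000 CPM. The primary granule list had a median deviation of 1.02 in that library and of 1.05 in untreated replicate 3.

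Of 30 interferon-stimulated genes 0 passed by edgeR or limma and 1 by DESeq2 (3 had an unadjusted p under 0.05), although 29 had a positive log2 fold change and the median was 0.996. Without IMQ replicate 5, 1 of the 30 rose, beside 7.55% of all genes tested. The summed level was 2090 to 3210 CPM in the untreated libraries, 11600 CPM in IMQ replicate 1 and 2810 to 3190 CPM in IMQ replicates 2 to 5. By this sum only IMQ replicate 1 was above the untreated range, and without it the median log2 fold change was 0.15. In the median log2 deviation of the list IMQ replicate 3 was above the untreated range too, at 0.375 beside −0.494 to 0.291. *Zbp1*, a sensor of Z-form nucleic acids, was at 14.3, 23.6, 26.7, 20.6 and 27.9 CPM without and 324, 65.6, 29.3, 40.2 and 27.3 CPM with IMQ (2.104 ± 0.73, adjusted p = 0.0963). *Ifit2*, an RNA-binding antiviral protein, was at 14.4, 15.7, 17.7, 15.5 and 21.3 CPM without and 155, 21.4, 41.7, 15.2 and 14.2 CPM with IMQ (1.55 ± 0.67, adjusted p = 0.178). Guanylate-binding proteins and immunity-related GTPases had 0 of 14 called by edgeR and limma and 1 by DESeq2 (1 with an unadjusted p under 0.05), with the same library at 700 CPM summed and all others at 157 to 265 CPM. Of 16 MHC class I genes 0 passed by edgeR or limma and 1 by DESeq2 (2 had an unadjusted p under 0.05), and 1 rose without IMQ replicate 5. H2-K1, the classical class I heavy chain, was at 550.1, 592, 882, 685 and 754 CPM without and 1695, 1553, 387, 1969 and 645 CPM with IMQ (0.85 ± 0.36, adjusted p = 0.172), and H2-Q4 at 52.5, 58.7, 78.7, 56.7 and 71.7 and 249, 239, 54.98, 255 and 53.1 CPM (1.42 ± 0.42, adjusted p = 0.0609). Both were above all untreated libraries in IMQ replicates 1, 2 and 4. Replicates 3 and 5 lay in the untreated range, except that H2-K1 was below it in replicate 3.

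**Figure D4:**
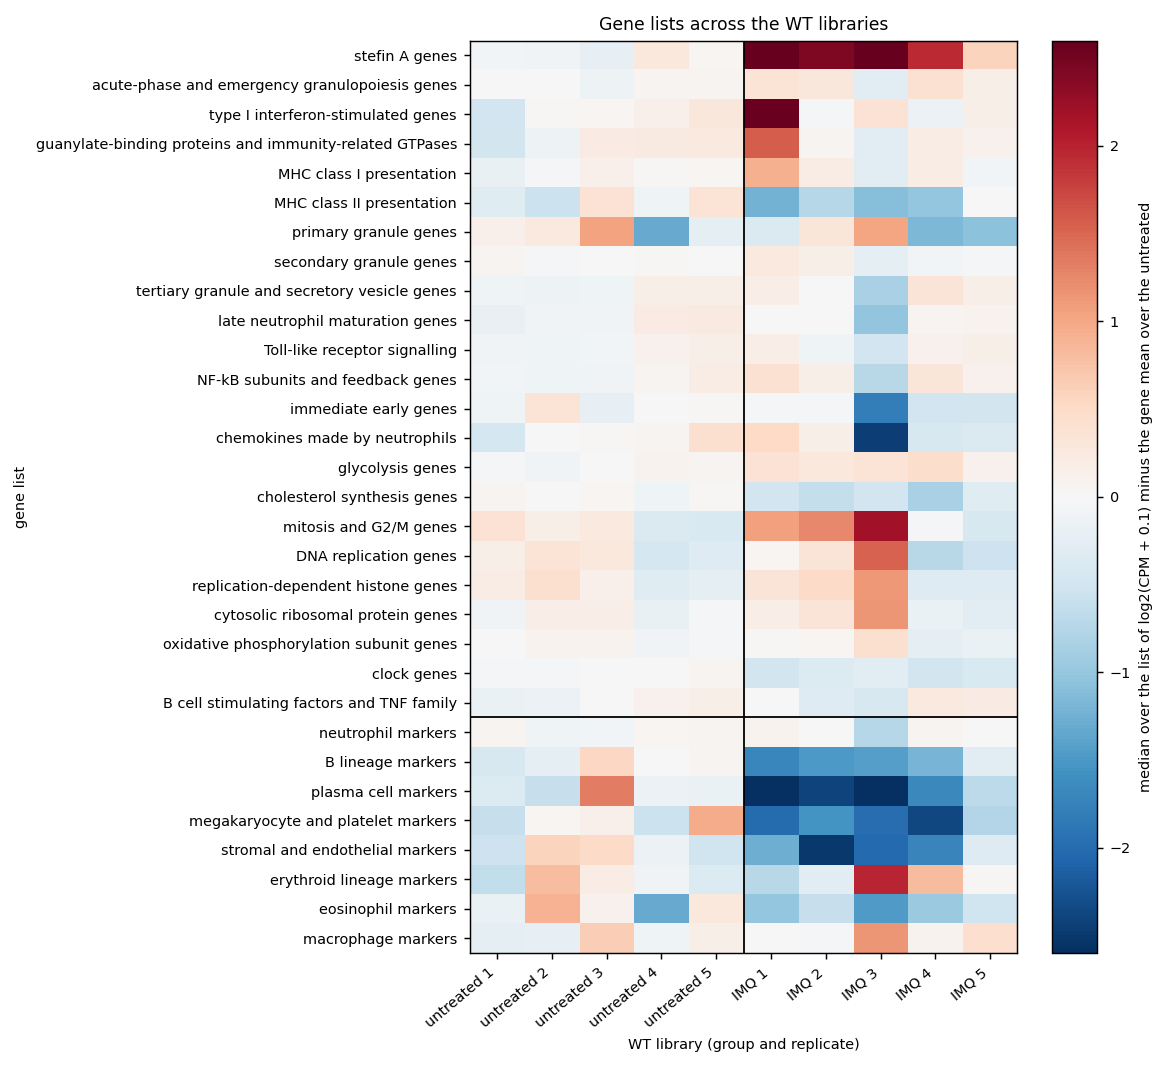
Level of each gene list (rows) in each WT library (columns), as the median over the list of log2(CPM + 0.1) minus the gene's mean over the untreated libraries (colour scale, with values past its ends drawn in the end colours). Stefin A genes were high in all treated libraries (0.58 in replicate 5), interferon-stimulated genes in IMQ replicate 1 (2.57) and mitosis genes in IMQ replicates 1 to 3 (1.06 to 2.19), while clock genes were below zero in all 5 treated libraries.

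Of 12 chemokine genes 2 fell and none rose. *Ccl3*, a ligand of CCR1, was at 22.3, 41.8, 32.6, 30.1 and 29.7 CPM in the untreated and 12.98, 14.7, 2.97, 5.51 and 10.2 CPM in the treated libraries (−1.76 ± 0.45, adjusted p = 0.0366). *Ccl4*, a related inflammatory chemokine, was at 3.48, 7.54, 5.101, 5.26 and 5.33 CPM without and 2.35, 1.44, 0.42, 0.881 and 1.54 CPM with IMQ (−2.01 ± 0.45, adjusted p = 0.0225). The spans of the 2 genes overlap on chromosome 11 (*Ccl3* at 83647843 to 83649378 and *Ccl4* at 83648624 to 83664683), and the part of this overlap in their calls was not tested. Neither gene's groups overlapped, and IMQ replicate 5 lay within the treated range for both. *Ccl3* passed in 1 of the 10 fits without 1 library, that without IMQ replicate 5, and *Ccl4* in 4. *Ptgs2*, cyclooxygenase 2, was at 141, 227, 161, 197 and 207 CPM without and 30.7, 32.5, 0.507, 13.9 and 64.04 CPM with IMQ. The groups did not overlap, but the gene missed the threshold with all libraries (−2.72 ± 0.78, adjusted p = 0.0551) and passed without IMQ replicate 5 (−3.28 ± 0.85, adjusted p = 0.0166). *Thbs1*, thrombospondin 1, an adhesive glycoprotein of platelets and myeloid cells, separated IMQ replicate 5 from the other treated libraries. It was at 1404, 1302, 855, 1463 and 2844 CPM in the untreated libraries, at 52.5, 28.1, 4.43 and 21.4 CPM in IMQ replicates 1 to 4 and at 865 CPM in IMQ replicate 5 (log2 fold change −3.02 ± 0.97, adjusted p = 0.0786, and −5.896 ± 0.71, adjusted p = 9.56e-05 without replicate 5). *Ces1d*, a carboxylesterase, was at 23.6, 22.3, 21.7, 24.04 and 26.6 CPM in the untreated libraries, at 1.601, 2.83, 0.542 and 2.57 CPM in IMQ replicates 1 to 4 and at 19.6 CPM in IMQ replicate 5. *N4bp3* was at 8.595, 12.04, 11.7, 8.98 and 6.35 CPM, 0.603, 0.951, 1.47 and 1.99 CPM and 8.79 CPM in the same order. The log2 fold changes were −2.12 for *Ces1d* and −1.79 for *N4bp3*, and −3.65 and −2.92 without IMQ replicate 5. For all 3 genes IMQ replicate 5 was far nearer to the untreated libraries than to the treated ones. None of the 3 passed with all libraries. Genes that pass only without a library tend by that choice to set it apart, so its place here is a description. Of 20 immediate early genes 0 passed by edgeR, 2 by DESeq2 and 1 by limma (7 had an unadjusted p under 0.05).

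Genes of the circadian clock were examined because the series concerns *Bmal1*, listed as *Arntl* in the files. Of 18 tested 1 fell by edgeR, 5 by DESeq2 and 2 by limma, and 15 had a negative log2 fold change with a median of −0.38. *Dbp*, a direct target of the clock activators, was at 2.62, 2.83, 2.62, 2.503 and 2.23 CPM in the untreated and 1.35, 1.495, 0.927, 0.969 and 1.62 CPM in the treated libraries, without overlap (−1.01 ± 0.20, adjusted p = 0.0164), and passed in 9 of the 10 fits without 1 library. *Per3*, a clock repressor, was at 3.48, 3.796, 3.69, 2.56 and 2.804 CPM without and 1.66, 2.08, 2.68, 1.58 and 2.42 CPM with IMQ (−0.65 ± 0.20, adjusted p = 0.0681). *Arntl* itself was at 1.17, 1.56, 1.71, 0.895 and 1.39 CPM without and 0.561, 1.07, 1.87, 1.004 and 1.04 CPM with IMQ (−0.28 ± 0.38, adjusted p = 0.718). The median log2 deviation of the list from the untreated mean lay between −0.04 and 0.08 in the untreated libraries and between −0.48 and −0.30 in the treated ones, and here IMQ replicate 5, at −0.40, was within the treated range. The hour at which each mouse was killed is not given in the labels, and its part in these values was not tested.

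The B cell factors are of interest in lupus. *Tnfsf13*, which encodes APRIL, was at 1.02, 1.06, 0.954, 0.516 and 1.03 CPM in the untreated and 1.08, 0.854, 2.08, 0.458 and 0.427 CPM in the treated libraries (0.097 ± 0.41, adjusted p = 0.92), with the sign changing between fits. *Tnfsf13b*, which encodes BAFF, was at 95.6, 82.99, 96.2, 98.9 and 86.1 CPM without and 56.2, 39.7, 5.83, 58 and 82.2 CPM with IMQ (−0.93 ± 0.42, adjusted p = 0.193). All treated libraries were below all untreated ones, with IMQ replicate 3 lowest and replicate 5 highest. Of 13 B cell factors and TNF family genes 0 passed by edgeR, DESeq2 or limma (2 had an unadjusted p under 0.05). *Bcl2l1*, which encodes the survival factor Bcl-xL, rose (0.53 ± 0.14, adjusted p = 0.0446) and *Bcl2a1b*, a neutrophil survival gene with near copies, fell (−1.05 ± 0.23, adjusted p = 0.0213), as the only called members of 15 *Bcl2* family genes. *Bcl2l1* passed in 1 of the 10 fits without 1 library and *Bcl2a1b* in 3.

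Transcripts of other cells left after the negative selection differed between the groups too. In bulk RNA, fewer cells of a type in the marrow, their more complete removal and less RNA per cell cannot be told apart. Of 8 plasma cell markers 6 fell (median log2 fold change −2.17) and 7 without IMQ replicate 5. *Jchain*, the joining chain of secreted IgM and IgA, was at 367, 290.3, 1344, 428 and 454 CPM in the untreated and 28.4, 59.8, 24.7, 81.6 and 296 CPM in the treated libraries (−2.56 ± 0.62, adjusted p = 0.0298). *Sdc1*, the plasma cell surface marker CD138, was at 6.95, 7.48, 25.9, 8.78 and 8.38 CPM without and 1.23, 1.81, 1.16, 2.45 and 5.95 CPM with IMQ (−2.19 ± 0.49, adjusted p = 0.0226), and *Mzb1*, an antibody folding factor, at 6.68, 7.12, 26.8, 12.1 and 9.76 CPM and 0.832, 1.75, 0.700, 3.31 and 7.43 CPM (−2.15 ± 0.59, adjusted p = 0.0453). Untreated replicate 3 had the highest level of all 3, and IMQ replicate 5 the highest of the treated. The list summed to 431 to 1600 CPM without IMQ, 155 to 207 CPM in IMQ replicates 1 to 4 and 431 CPM in IMQ replicate 5. None of the 6 calls was made in all 10 fits with a library left out. *Sdc1* passed in 4, *Jchain* in 2 and *Mzb1* in 1. Of 14 B lineage markers all had a negative log2 fold change and 1 passed, *Fcrla*, which did so in 1 of the 10 fits, and 10 of 15 did without IMQ replicate 5. With all libraries, 5 were called lower by DESeq2 and 3 by limma. The list summed to 23.9 to 51.3 CPM without and 10.3 to 27.3 CPM with IMQ. Of 8 MHC class II genes, which B cells express, 0 passed by edgeR and 1 by DESeq2 and by limma (3 had an unadjusted p under 0.05), and *Cd74*, the invariant chain, was at 44.1, 44.4, 121, 58.01 and 60.6 CPM without and 8.32, 11.7, 4.01, 25.4 and 46.6 CPM with IMQ (−1.77 ± 0.58, adjusted p = 0.0829).

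**Figure D5:**
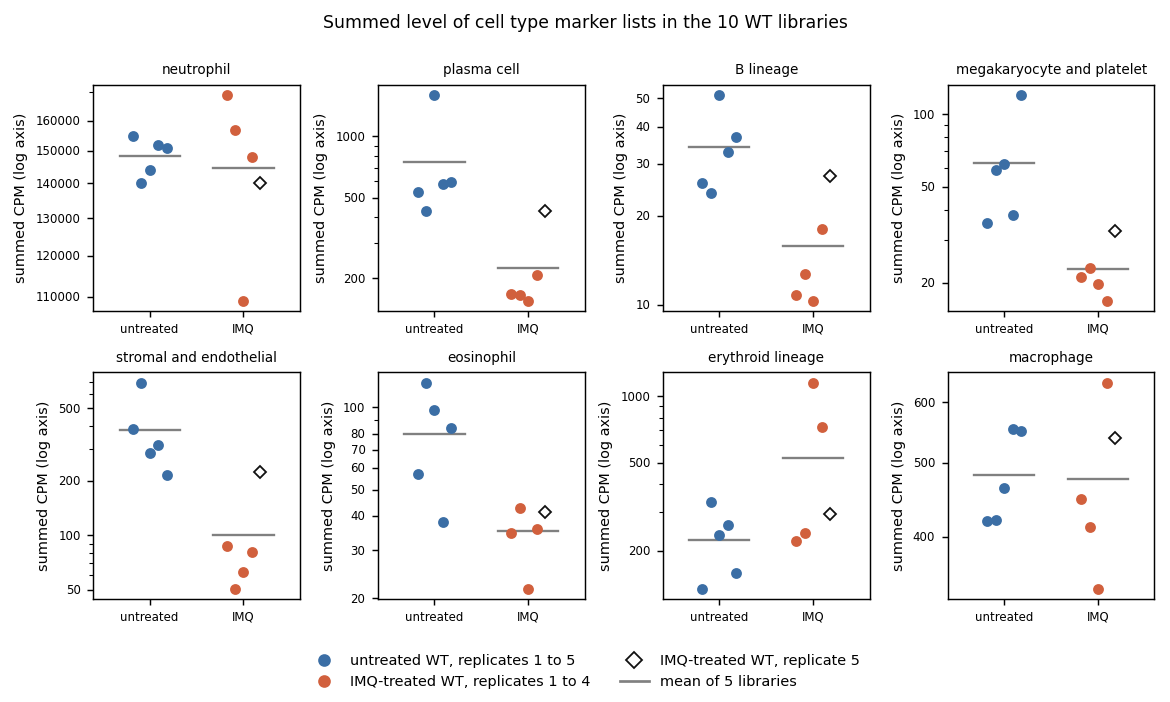
Summed level in CPM (vertical axes, log scale) of 8 lists of cell type markers in the untreated (blue) and IMQ-treated WT libraries (orange, replicates 1 to 4, and open diamond, replicate 5), each point 1 mouse. Plasma cell and stromal markers were lower in IMQ replicates 1 to 4 than in any untreated library, with replicate 5 at 431 and 223 CPM, and erythroid markers were highest in IMQ replicates 3 and 4 (1150 and 726 CPM).

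Of 10 megakaryocyte and platelet markers 1 fell, *Treml1* (−2.89 ± 0.71, adjusted p = 0.0325, called in 2 of the 10 fits without 1 library), and 8 fell without IMQ replicate 5. With all libraries, DESeq2 called 7 lower and limma 3. Of the 10 markers 9 had a negative log2 fold change. *Ppbp*, a platelet chemokine, was at 7.202, 17.9, 15.9, 10.5 and 39.3 CPM in the untreated and 1.39, 0.874, 0.385, 0.634 and 7.69 CPM in the treated libraries (−3.04 ± 0.95, adjusted p = 0.0717). The platelet list summed to 35.4 to 120 CPM in the untreated libraries, 16.8 to 23 CPM in IMQ replicates 1 to 4 and 32.8 CPM in IMQ replicate 5. Because *Thbs1* is also a platelet gene, these values stand beside it, and their part in its change was not tested. Of 10 stromal and endothelial markers 2 fell, *Cxcl12* and *Lepr*, while DESeq2 called 1 higher and 4 lower, and limma 5 lower. *Cxcl12*, the chemokine that holds neutrophils in the marrow, was at 72.2, 165, 166, 138 and 69.5 CPM without and 38.3, 15.5, 19, 18.1 and 88.6 CPM with IMQ (−1.77 ± 0.48, adjusted p = 0.0469), and like *Lepr* it passed only in the fit without IMQ replicate 5 of the 10. *Ibsp*, a matrix protein of bone-forming cells, was at 13.5, 41.3, 34.8, 23.9 and 11.02 CPM without and 1.83, 4.52, 3.57, 5.07 and 12.9 CPM with IMQ (−2.16 ± 0.44, adjusted p = 0.0174), outside the list, and passed in 7. The stromal list summed to 216 to 694 CPM without IMQ, 50.8 to 87.1 CPM in IMQ replicates 1 to 4 and 223 CPM in IMQ replicate 5. Of 9 eosinophil markers 2 fell, among them *Prg2*, the major basic protein, at 27.6, 71.7, 60.6, 15.3 and 43.6 CPM without and 11.2, 20.5, 7.17, 12.3 and 14.3 CPM with IMQ (−1.74 ± 0.48, adjusted p = 0.0488). The *Prg2* levels of the groups overlapped, with and without IMQ replicate 5, the gene passed in 1 of the 10 fits without 1 library, and limma called 1 of the 9 markers. T and NK cell markers summed to 10.9 to 13.6 CPM without and 1.49 to 12.4 CPM with IMQ.

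Of 14 erythroid markers 1 rose, *Alas2*, the first enzyme of heme synthesis in red cells, which passed in 1 of the 10 fits without 1 library, and the list summed to 135 to 332 CPM in the untreated and 222, 240, 1150, 726 and 294 CPM in the treated libraries. *Tmcc2*, a transmembrane protein also made by red cell precursors, was at 8.68, 12.5, 12.7, 16.8 and 8.74 CPM without and 48.2, 47.9, 213, 596 and 35.1 CPM with IMQ (3.98 ± 0.81, adjusted p = 0.0175). It passed in 8 of the 10 fits without 1 library. It was highest in IMQ replicates 4 and 3, the libraries with the most erythroid RNA, and the part of that RNA in its rise was not tested. *Slc4a1*, the anion exchanger of red cells, was at 19.8, 26.1, 22.7, 78.2 and 24.5 CPM without and 75.1, 54.95, 369.9, 285 and 92.7 CPM with IMQ (2.36 ± 0.84, adjusted p = 0.103). Of 13 macrophage markers *Hmox1*, heme oxygenase 1, rose (0.47 ± 0.12, adjusted p = 0.0403), and passed in 1 of the 10 fits without 1 library. For both the erythroid and the macrophage list, DESeq2 called 3 markers higher. Of the 11 neutrophil markers 0 passed by edgeR, DESeq2 or limma (0 had an unadjusted p under 0.05), and their median log2 fold change was −0.09.

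The effect of IMQ was not shown to differ between WT and *Bmal1* Mye-/- neutrophils. The interaction of genotype and treatment gave 0 genes at an adjusted p under 0.05 by edgeR, by DESeq2 and by limma, with 721 genes at an unadjusted p under 0.05 by edgeR. In *Bmal1* Mye-/- the log2 fold changes of the genes above were 0.77 for *Jak3*, 0.44 for *Csf2rb2*, 1.498 for *Tlr1*, 3.62 for *Stfa2*, 0.67 for *Lrg1* and 0.81 for *Pfkl*, and for *Thbs1* −5.83, beside −3.02 in WT and −5.90 in WT without IMQ replicate 5. Without that library 1 gene had an interaction (0.00701% of those tested), *Ppfibp2*, a liprin-beta scaffold protein, which was at 4.73, 4.38, 4.48, 3.88 and 4.71 CPM in untreated and 1.31, 1.42, 1.29, 1.902 and 3.64 CPM in IMQ-treated WT. Its log2 fold change was −1.58 ± 0.14 in WT and −0.41 in *Bmal1* Mye-/-, a difference of 1.19 (standard error 0.18, adjusted p = 0.0411). With all libraries the difference was 0.80 (standard error 0.30, adjusted p = 0.64) and did not pass. The library left out had been singled out by its measured values, so the call without it is a description and not an independent result.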

How the data were processed

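Libraries of poly(A) RNA from bone marrow neutrophils were assigned to groups from the genotype and treatment in their titles, which also give the replicate. The counts are those the authors deposited: raw, whole-number reads per gene for 24421 genes, with 5 summary lines that were left out. The submitters' processing notes name bcl2fastq, STAR 2.7.8a, HTSeq 2.0.1 and mm10, while the paper's methods name TopHat, so which aligner made the counts, the annotation and the strand setting are not given in the sources used here, nor is the sequencer of each library. P-values measure the spread between these samples, 1 per mouse. Analysis was in R 4.3.3. In edgeR 4.0.16 genes were filtered on low counts with the 4 groups of the series (10391 left out), scaled by TMM factors, and fitted by the quasi-likelihood method with 1 model of 20 libraries. Standard errors were derived from the F statistic. CPM are TMM-scaled. In 20 pairs of libraries within a group, chi-square divided by its degrees of freedom reached 23.1 to 588, so no WT library was a copy of another of its group. Pairs across groups and the *Bmal1* Mye-/- libraries were not compared in this way. The fit was tested on simulated data. Alternatives used DESeq2 1.42.0 and limma 3.58.1, among others. Genes were named by rule: the 12 called genes of smallest p in each direction, the 8 of largest change with a mean of at least 10 CPM, up to 5 called members of each list in each direction and, with fewer than 2 called, the 2 of smallest p, 3 abundant members of each marker list, 8 genes called only without IMQ replicate 5 in each direction, and a few genes of interest to the study. *Nos2* and other members named in passing were added after their values were seen. The genes and lists were chosen with earlier results of these data known. *Bpi* and *Defa4* did not pass the filter. *Ly6g*, *Il36g*, *Epb42*, *Ahsp*, *Trbc1* and *Trbc2* were not analysed here, and some genes are not reported here. Gene positions are from RefSeq (GRCm38.p6), with 23204 genes found by symbol, 1096 by a former symbol and 121 not at all.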

Additional observations from a re-analysis of the deposited data

Results flagged for a closer look

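In each group of 5 libraries the highest or lowest value was called far from the others when its gap to the next exceeded 0.71 of the range, which chance does for about 1 in 20 groups. Of 228 groups of values tested, 35 met this. The rate of 1 in 20 holds for independent, normally distributed values. Levels of different genes in the same libraries are not independent. Some genes were also named because they passed only without IMQ replicate 5, so the 35 cannot be set against that rate.

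IMQ replicate 5 was far above the other 4 treated libraries for *Thbs1* (864.7 CPM), *Jchain* (295.6), *Sdc1* (5.947), *Col1a1* (55.95), *Hsd17b7* (13.21), *Ppbp* (7.693), *Ppfibp2* (3.642), *Ces1d* (19.57) and *N4bp3* (8.79). These genes had a negative log2 fold change, but *Thbs1*, *Col1a1*, *Ppbp*, *Ces1d* and *N4bp3* did not pass with all libraries. It was far below the other treated libraries for *Jak3* (51.66 CPM) and *Pfkp* (68.13), genes that were higher with IMQ. The labels give no reason. IMQ replicate 3 was far above the others for *Stfa3* (230.4 CPM), BC100530 (266.2), *Cd38* (38.33), *Rrm2* (265.8) and *Tfrc* (186), the transferrin receptor of dividing and red cell precursors. It was far below them in the median log2 deviation from the mean of the untreated libraries for late neutrophil maturation genes (−1.02), NF-kB subunits and feedback genes (−0.73), immediate early genes (−1.79) and neutrophil markers (−0.737), and it had the most reads that were not uniquely aligned (6.34%). IMQ replicate 1 was far above the others for *Zbp1* (323.8 CPM) and *Ifit2* (154.8), and in the median of interferon-stimulated genes (2.57) and of guanylate-binding proteins (1.57).

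Among the untreated libraries, replicate 3 was far above the others for *Cd74* (121.1 CPM), *Jchain* (1344), *Sdc1* (25.86), *Mzb1* (26.83) and *Pou2af1* (37.97), in the median of plasma cell markers (1.34) and in reads on genes (79689416). Replicate 4 was far above for *Slc4a1* (78.22 CPM) and far below for *Tnfsf13* (0.5158), and replicate 5 far above for *Ctsc* (20.29). Without untreated replicate 3, the median log2 fold change of the plasma cell markers was −1.66.

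The response of *Ppfibp2* to IMQ differed between genotypes by 1.19 on the log2 scale when IMQ replicate 5 was left out, by the interaction test of edgeR. With all libraries the same test gave a difference of 0.80 (adjusted p = 0.64). Replicate 5 was far from the other treated libraries for this gene, so the call without it is not an independent result.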

How the results depend on the processing

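The count of 554 genes (329 higher, 225 lower) depended on the processing, while all 554 genes kept their direction wherever they were tested. It was 1480 with DESeq2 (801 higher, 679 lower), 326 without a filter on low counts (196 and 130), 186 in a fit of only the 10 WT libraries (127 and 59) and 706 with limma on log2(CPM + 0.1), where the split turned to 283 higher and 423 lower (40.1% higher, beside 59.4%). RLE factors, a minimum of 10 counts in every library, robust dispersions and thinning to the smallest library gave 408 to 537. With each WT library left out it ranged from 48 to 1989, with 35 to 1078 higher and 13 to 911 lower. Without IMQ replicate 5, a fit of only the WT libraries gave 1800 genes. The interaction gave 0 genes in all alternatives that kept every library and 0 to 1 with a library left out. The log2 fold change of *Tnfsf13* changed sign, to −0.081 with limma and −0.13 after thinning, ranged from −0.39 (without IMQ replicate 3) to 0.28 (without IMQ replicate 5) with a library left out, negative also without untreated replicate 4, and never passed. Of 78 genes examined, 18 lost their call in the fit of only the WT libraries, and 15 to 28 when any 1 WT library other than IMQ replicate 5 was left out, while 15 gained one with DESeq2. The causes were not tested. The replicate number was not shown to pair WT mice, and pairing was not excluded. Residuals of same-numbered libraries correlated by 0.0728 to 0.384, over 0.1 for 4 of 5. Untreated replicates 3, 4 and 5 correlated best with the treated library of their own number, and replicates 1 and 2 did not. With a replicate block the count was 190 (124 higher, 66 lower), and without IMQ replicate 5 it was 2077. Of the 78 genes 16 lost their call with the block: *Ifitm6*, *Gapdh*, *Cenpf*, *Rfc2*, *Ccl3*, *Ccl4*, *Pim3*, *Jchain*, *Sdc1*, *Mzb1*, *Pou2af1*, *Irf4*, *Cxcl12*, *Prg2*, *Hmox1* and *Bcl2l1*.

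Each WT library had 49455135 or more reads on genes, and WT libraries of a group differed by more than counting error. Among the *Bmal1* Mye-/- libraries in the model, the fewest reads on genes were 30782166, in untreated replicate 3.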
